A study of Rattus norvegicus with 60 samples.

Results

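Cytosolic ribosomal proteins build both subunits of the ribosome that translates nuclear mRNAs, and their transcripts are among the most abundant in any cell. Most of these mRNAs begin with a run of pyrimidines at the cap, the TOP tract, through which Larp1 and the mTOR pathway set how strongly they are translated. In neurons they also travel into dendrites and axons, and protein synthesis supplied by these ribosomes is required for lasting memory in the hippocampus.

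The genes described here are the rows of the deposited RNA table whose symbol has the form of a large (Rpl) or small (Rps) subunit protein and whose mean over all 34 libraries was at least 1 FPKM (fragments per kilobase of transcript and mapped library size). Of 22865 rows, 134 matched by symbol, 123 of these reached 1 FPKM, and 1 row was kept for each symbol, the one with the highest mean. Upper and lower case spellings were taken as 1 symbol, which gave 81 genes, 46 of the large and 35 of the small subunit (100 rows would have been kept with the spellings apart). They hold 74 of 79 proteins on a list of the standard mammalian set, and 7 are paralogs or variants outside it (Rps27l, Rps27l2, Rps4y2, Rps10l1, Rps19l1, Rpl22l1 and Rpl7l1). Rps4y2 lay just inside the limit at a mean of 1.396 FPKM, and the nearest symbol outside it was Rpl10l at 0.792 FPKM.

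RNA was taken from the CA1 field of the hippocampus of Sprague-Dawley rats 90 to 120 days old. The groups were naive (9 libraries, with no time given), place (6 libraries at 1 h and 5 at 24 h) and threat (8 libraries at 1 h and 6 at 24 h), where times run from training in recognition of a contextual threat. What place and threat animals underwent is not in the labels, nor whether each replicate was a separate animal, so the p-values rest on a spread that may be technical. Methylated DNA, captured with a methyl-CpG-binding domain (MBD sequencing), had 10 libraries for each time (3 naive, 4 place, 3 threat) plus 3 of input DNA. Recovered depths were 38.02 to 55.1 M reads per RNA library, and the median gene of the 81 had a median of 1682 reads.

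Libraries were compared before the results were read. Wfs1, a marker of CA1 pyramidal cells, was present in every library at 40.9 to 160 FPKM. It was the highest of the CA1 list, where Fibcd1 ran from 2.88 to 24.4 FPKM and Spink8 from 0 to 0.176 FPKM. The summed level of the 5 CA1 markers tested was uneven, from 58.9 FPKM in a naive library to 210 FPKM in a place 24 h library. Place 1 h replicate 3 had the highest summed level of 7 CA2 and CA3 markers, 358 FPKM against 144 to 304 in the other libraries. The 304 FPKM belonged to a threat 1 h library, which also stood apart from the median of its group, 174 FPKM. The highest values of naive, place 24 h and threat 24 h were 193.5, 193.7 and 187.5 FPKM. Threat 1 h replicates 4 and 7 carried choroid plexus transcripts (Ttr up to 6226 FPKM, median of all libraries 18.3). The naive columns stand in the table as 2 blocks, replicates 1 to 4 and replicates 5 to 9. The blocks are no labelled batch, and they were first noticed in the values.

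The starts of the genes show what the mRNAs have in common. RefSeq windows of the build GRCr8, 300 nt long from 250 before to 50 after the annotated start, were found for 63 of the 81 symbols. An unbroken run of at least 6 C or T reaching within 5 nt of the start was present in 44 of 63 windows (69.8%) and in 18.7% of all 33469 RefSeq windows. For Rps7, the symbol with the highest level, and for Rpl35a, values were measured on single-exon rows on chromosome 5, not at the locus printed. Rpl10a and Rpl13 were lower at 24 h, and Rps23, Rps21 and the Rpl35a row were higher. The 6 windows below were matched by symbol. They run from 40 nt before to 20 nt after the start, with the pyrimidine run in capitals.
Rps7: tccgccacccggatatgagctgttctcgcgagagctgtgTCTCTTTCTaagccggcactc
Rpl10a: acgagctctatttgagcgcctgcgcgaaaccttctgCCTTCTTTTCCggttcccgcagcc
Rpl13: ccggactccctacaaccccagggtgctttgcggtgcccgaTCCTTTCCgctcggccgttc
Rps23: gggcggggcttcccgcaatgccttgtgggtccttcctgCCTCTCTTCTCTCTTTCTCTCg
Rps21: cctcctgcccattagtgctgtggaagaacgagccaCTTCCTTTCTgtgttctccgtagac
Rpl35a: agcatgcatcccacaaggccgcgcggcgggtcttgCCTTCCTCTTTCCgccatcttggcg
In GRCr8 these lie at chr6:50999426-50999485 (Rps7, minus strand), chr20:6390493-6390552 (Rpl10a, plus), chr19:68062474-68062533 (Rpl13, plus), chr2:23814477-23814536 (Rps23, plus), chr3:187723998-187724057 (Rps21, plus) and chr11:81235002-81235061 (Rpl35a, minus). The runs are 8 to 21 nt long, and both directions of change are represented among genes that carry one.

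Other letters searched on both strands of the same windows were also commoner than in RefSeq as a whole. CTTCCG, the core that ETS factors read, was found in 55.6% of the ribosomal protein windows and 16.6% of all windows. CTTTCC, which can lie within the pyrimidine run and can overlap CTTCCG, was found in 47.6% and 26.4%, and AAGATGGC, a core of the YY1 motif, in 7.94% and 3.17%. TATAAA was found in 12.7% and 14.2%. The windows held a median of 22 CpG dinucleotides, and RefSeq windows a median of 7. RefSeq windows were not selected by expression or CpG content, so the higher shares, and that of the pyrimidine run, may not be particular to ribosomal protein genes. A match is a description of letters and not a bound site.

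Levels per length differed widely among the 81 mRNAs. The highest were Rps7, a small subunit protein (304 FPKM, mean of 34 libraries), Rps27a, made as a fusion with ubiquitin (297 FPKM), Rpl41, the smallest ribosomal protein (277 FPKM), Rpl37 (247 FPKM) and Rplp1, of the acidic stalk that recruits elongation factors (240 FPKM). The 5 lowest were Rps4y2 (1.396 FPKM), Rpl21 (1.65 FPKM), Rps19l1 (3.20 FPKM), Rps12 (4.86 FPKM) and Rpl35a (4.90 FPKM). In all, 30 genes exceeded 100 FPKM, 9 were under 10 FPKM and the median was 69.9 FPKM. Most of these proteins enter each ribosome once.

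Ribosomal protein genes have many intronless copies in mammalian genomes, most of them processed pseudogenes, and a read cannot always be placed between a copy and its parent. FPKM values are whole reads divided by row length and depth, so the length of each row's model could be recovered. For 26 of the 81 genes the row kept was a single exon as long as the gene's span, and for 55 it was spliced. A spliced row of the same symbol was listed for 23 of the 26. The single-exon row was the higher in all 34 libraries for all 23, by 2.02 to 32.6 times (median 8.05). For Rps7, the single-exon row (chromosome 5, 172581804 to 172582388 in rn5) had 304 FPKM and the spliced row (chromosome 6) 33.5 FPKM. For Rpl37 the values were 247 and 7.56 FPKM, and for Rps26, the closest pair, 60.8 and 30.2 FPKM. How the authors' counting shared reads between copies is not given in the sources used here, so levels of single-exon rows, and of their spliced partners, are uncertain as levels of one locus.

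**Figure D1:**
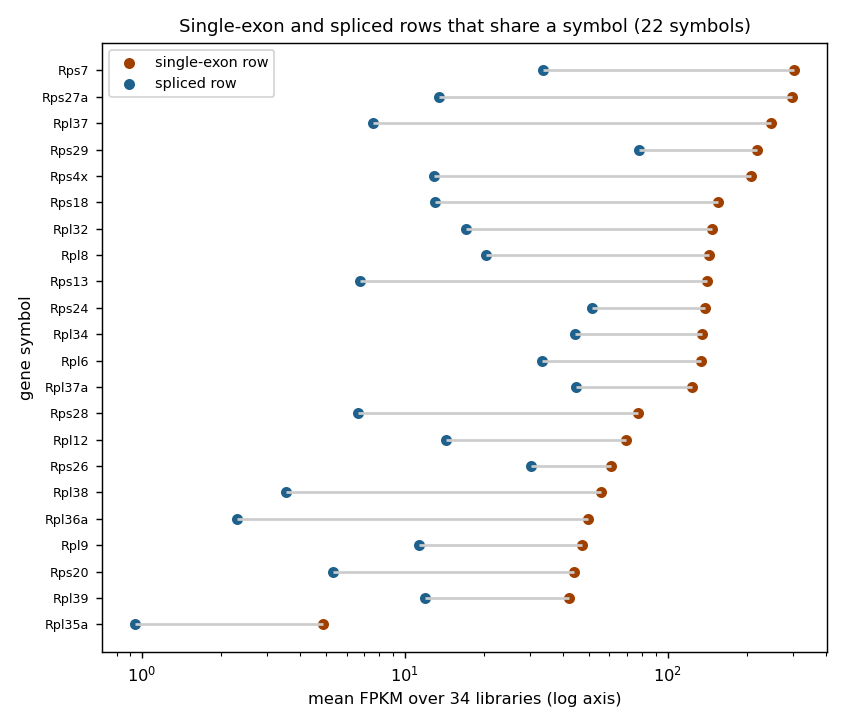
Mean FPKM over 34 libraries (log axis) of the single-exon row and the spliced row for 22 of the 23 symbols with both. The single-exon row lies to the right for every symbol drawn, from 2.02 times for Rps26 to 32.6 times for Rpl37.

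The single-exon and the spliced row of a symbol did not always vary together. The spliced row taken was the highest of its symbol and need not be the parent gene. That of Rpl35a spans 401 nt on chromosome 12, and the RefSeq window of Rpl35a lies on chromosome 11. Across libraries the correlation between the single-exon and the spliced row of a symbol ran from -0.10 for Rps4x to 0.91 for Rpl32, with a median of 0.60 (n = 34 libraries, which share their depth between both rows). Rps4x, whose parent gene lies on the X chromosome, had 208 FPKM in the single-exon row on chromosome 4 and 12.9 FPKM in the spliced row. Rps9 had a second spliced row about as high as the first, 47.4 and 49.7 FPKM, on the same strand of chromosome 1.

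Paralogs and variants stood on either side of their partners. Rpl3l, the form of striated muscle, was at 0.138 FPKM beside 139 FPKM for Rpl3, which lines the peptidyl transferase centre. Rpl10l was at 0.792 beside 55.9 FPKM for Rpl10, and Rpl39l at 0.120 beside 42.3 FPKM for Rpl39 of the exit tunnel. Rps4y2 was at 1.396 beside 208 FPKM for Rps4x. Rpl22 and Rps27 were closer to theirs. Rpl22l1 reached 28.7 FPKM beside 22.6 FPKM for Rpl22, and Rps27l 5.47 beside 23.2 FPKM for Rps27. Rpl7l1 stood at 14.6 FPKM and Rpl7 at 85.7 FPKM. Rps19l1 was at 3.20 beside 6.66 FPKM for Rps19. Above their partners were Rps10l1, a single-exon row at 98.6 FPKM beside 6.17 FPKM for Rps10, and Rps27l2, a spliced row at 120.9 FPKM beside 23.2 FPKM for Rps27.

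Together the 81 rows made up 2.07 to 3.03% of all FPKM of a library. Their summed level was 6790 ± 560 FPKM in naive (SD, n = 9), 6864 ± 777 in place 1 h (n = 6), 6974 ± 458 in threat 1 h (n = 8), 7014 ± 565 in place 24 h (n = 5) and 6694 ± 150 in threat 24 h (n = 6). All 5 groups overlapped. The range over libraries ran from 5418 FPKM in place 1 h replicate 3, the library with the highest CA2 and CA3 markers, to 7842 FPKM in place 24 h replicate 4. The part of the markers in the low value was not tested. In bulk tissue, fewer cells of a type and less RNA per cell cannot be told apart.

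**Figure D2:**
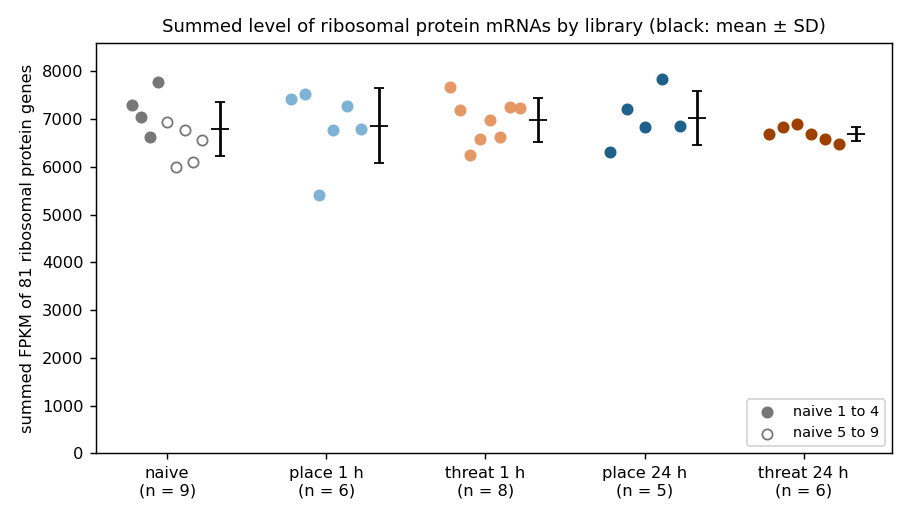
Summed FPKM of the 81 ribosomal protein genes in each library by group, with the group mean ± SD in black. The groups overlap, and the lowest library is place 1 h replicate 3 at 5418 FPKM.

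Most of the genes varied together from library to library. The correlation of a gene's log2(FPKM + 1) with the mean of the other 80 had a median of 0.75 over 34 libraries and exceeded 0.8 for 33 genes (all points share their library's scaling). It reached 0.97 for Rpl37a. Genes with low values were Rps16 (0.11), Rpl27 (0.11), Rpl30 (0.08) and Rpl7l1 (-0.33), the only one below 0. Among genes of at least 10 FPKM, Rpl17 had the largest SD of log2 values, 0.63, with a range from 9.05 to 44.6 FPKM. The next were Rpl36 (0.29), Rpl26 (0.28), Rpl30 (0.27) and Rps14 (0.27). Among the steadiest were Rpl5, which carries 5S rRNA into the large subunit (SD 0.09, 75.1 to 108.9 FPKM) and Rpl3 (SD 0.09).

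Training was compared with naive first. At 1 h, no ribosomal protein mRNA passed a Benjamini-Hochberg adjusted p of 0.05 in limma, in threat against naive (0.928% of 13153 genes passed, 0.806% higher and 0.122% lower) or in place against naive (0.129% passed, 0.0912% higher and 0.038% lower). At unadjusted p under 0.05 there were 19 of the 81 in threat and 15 in place. Over all 13153 genes there were 2120 and 1284, a smaller share in each. The median log2 difference of the 81 was 0.05 in threat and 0.03 in place, against 0.02 and 0.00 over all genes. The lowest p in threat belonged to Rpl10a of the L1 stalk (log2 difference 0.37, SE 0.10, limma adjusted p = 0.074) and Rpl13. In place it belonged to Rps23, a protein of the decoding centre (-0.22, SE 0.06, limma adjusted p = 0.18), and Rps9. Leaving out naive replicate 4 gave 7 genes higher in threat at 1 h, leaving out naive 1 or 2 gave 2, and leaving out naive 3 gave 1.

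At 24 h, Rpl35a was the one gene to pass, higher in place than in naive, where 5.05% of all genes passed (1.49% higher and 3.56% lower). Its values in place 24 h were 5.53, 6.25, 5.64, 7.51 and 6.02 FPKM, and naive ran from 3.75 through a median of 4.996 to 5.90 FPKM. The ranges overlapped, and the log2 difference was 0.32 (SE 0.09, limma adjusted p = 0.046). The row is a single exon (chromosome 5, 168581346 to 168581793, plus, in rn5), so the RefSeq window above belongs to another locus of this symbol, and the same holds for Rps7. The call was lost when any of 5 naive or 4 place 24 h libraries was left out (naive 1, 2, 3, 4 or 8, place 24 h 2, 3, 4 or 5), which left 0 genes. Without place 24 h replicate 1 there were 2. In threat against naive at 24 h no ribosomal protein gene passed, where 10.1% of all genes did (4.32% higher and 5.77% lower). There, 4 of the 81 had an unadjusted p under 0.05, a smaller share than the 3448 of all 13153 genes. The lowest adjusted p was that of Rpl27 (log2 difference 0.19, SE 0.06, limma adjusted p = 0.0503). Without naive 5, 7, 8 or 9, or without threat 24 h replicate 5, 1 gene passed there.

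Threat and place did not differ in any ribosomal protein gene past the threshold, nor in any of the 13153 genes (0% at each time, limma). At unadjusted p under 0.05 there were 2 of the 81 at 1 h and 4 at 24 h, with 560 and 381 over all genes. The gene with the lowest p at both times was Rps2, a protein of the small subunit near the mRNA entry. Its values in threat 24 h ran from 23.3 through a median of 25.9 to 33.7 FPKM, and those of place 24 h were 34.3, 38.2, 36.0, 33.4 and 32.1 FPKM. The groups overlapped by a narrow margin, with a log2 difference of -0.34 (SE 0.13, limma adjusted p = 0.9998). The median of the 81 was 0.03 at 1 h, with 64 genes above 0, and -0.06 at 24 h, with 9 above 0, beside medians of 0.02 and -0.002 over all genes. No gene passed for the interaction of training and time (0% of all genes, 1 of the 81 at unadjusted p under 0.05 and 360 of all genes). Its lowest p was that of Rps4y2 (log2 difference 0.29, SE 0.14, limma adjusted p = 0.9997).

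Some ribosomal protein genes differed between 24 h and 1 h within each kind of training. In threat, 28 of 81 passed (34.6%, beside 29.3% of all genes), 9 higher (11.1%, beside 12.5% of all genes) and 19 lower (23.5%, beside 16.8%) at 24 h. In place, 16 passed (19.8%, beside 13.3% of all genes), 12 higher (14.8%, beside 6.61% of all genes) and 4 lower (4.94%, beside 6.64%). In both, 13 genes passed, 9 higher and 4 lower, and 0 passed with opposite signs. The median log2 difference of the 81 was -0.05 in threat and 0.01 in place, and -0.01 and 0.01 over all genes. The direction split depended on the scaling and on place 1 h replicate 3. With quantile normalization it was 6 higher and 28 lower in threat and 7 and 6 in place, and without that library it was 8 and 8 in place. The place count of 16 dropped to 10 without place 1 h replicate 4 or place 24 h replicate 2 or 5, and to 9 without place 24 h replicate 3. With array weights it was 31, of which 12 were higher and 19 lower.

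Among the large subunit genes lower at 24 h, Rpl10a differed the most (chromosome 20, 10108670 to 10111228, plus strand, in rn5). Its level in threat 1 h ran from 9.37 through a median of 10.6 to 12.7 FPKM, and in threat 24 h from 6.02 through 6.92 to 7.31 FPKM. In place 1 h it ran from 9.70 through 10.4 to 11.5 FPKM, and the 24 h values were 6.45, 6.71, 5.36, 7.02 and 7.21 FPKM. Every 24 h library lay below every 1 h library in both kinds of training. The log2 difference was -0.58 in threat (SE 0.11, limma adjusted p = 0.00036) and -0.61 in place (SE 0.13, limma adjusted p = 0.0026).

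Rpl13 (chromosome 19, 66622803 to 66625369, plus) was lower by a similar step in threat, from a median of 25.96 FPKM (22.3 to 29.0) at 1 h to 18.0 FPKM (17.4 to 20.2) at 24 h, with no overlap. The log2 difference was -0.47 in threat (SE 0.10, limma adjusted p = 0.00092) and -0.34 in place (SE 0.12, limma adjusted p = 0.045). Rpl38, whose loss in mice impairs translation of a subset of mRNAs in development, and Rpl39 were the other 2 genes lower in both, by -0.26 and -0.34 on the log2 scale in threat and by -0.33 and -0.33 in place. Both are single-exon rows. The spliced row of Rpl39 was also lower (-0.61 and -0.51, limma adjusted p = 0.00022 and 0.0096), and that of Rpl38 did not pass in either (0.03 and 0.19). Rpl36 and Rpl26 fell in threat (-0.48 and -0.45) and did not pass in place (-0.32 and -0.27).

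Rpl41 had the highest level of the genes that fell in threat. Its values were 275 to 360 FPKM at 1 h (median 309) and 229 to 253 FPKM at 24 h (median 238), and the groups did not overlap. In the small subunit, Rps14, which holds mRNA near the platform, fell in threat from a median of 20.8 FPKM (16.8 to 22.5) to 14.1 FPKM (13.6 to 15.9), a log2 difference of -0.45 (SE 0.12, limma adjusted p = 0.0042). In place its difference was -0.21 and did not pass. No small subunit gene passed as lower at 24 h in place, and 6 did in threat.

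Higher at 24 h in both kinds of training were Rps16, Rps23, Rps21 and Rps9 of the small subunit and Rpl27, Rpl35a, Rpl7l1, Rpl3 and Rpl6 of the large. Rps16 (chromosome 1, 86620608 to 86623553, minus) ran from 80.9 through a median of 99.4 to 111 FPKM in threat 1 h and from 116 through 122 to 141 FPKM in threat 24 h. In place 1 h it ran from 75.4 through 100.4 to 107 FPKM, and the 24 h values were 126, 118, 119, 143 and 145 FPKM. Again no 24 h library overlapped the 1 h libraries, here from above. The log2 difference was 0.37 in threat (SE 0.09, limma adjusted p = 0.0032) and 0.42 in place (SE 0.10, limma adjusted p = 0.0070).

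Rps23 (chromosome 2, 19699472 to 19701042, plus) was higher without overlap too. Its values in threat ran from 172 to 215 FPKM at 1 h and from 224 to 248 FPKM at 24 h, and in place from 149 to 215 FPKM at 1 h and from 226 to 269 FPKM at 24 h. The log2 difference was 0.26 in threat (SE 0.06, limma adjusted p = 0.0030) and 0.40 in place (SE 0.07, limma adjusted p = 0.00093). Rpl27 had the lowest p of the 81 in threat, 0.34 (SE 0.07, limma adjusted p = 0.00029), with 0.35 in place (SE 0.07, limma adjusted p = 0.0023). Rps21 differed by 0.30 and 0.27, and Rps9 by 0.15 and 0.29. The second Rps9 row passed in place (0.24, limma adjusted p = 0.017) and not in threat (0.13, limma adjusted p = 0.090).

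Rpl7l1, a paralog of Rpl7 outside the standard set and the gene that ran against the others across libraries, was higher by 0.26 in threat (SE 0.06, limma adjusted p = 0.0028) and 0.28 in place (SE 0.07, limma adjusted p = 0.011). Rpl7 itself had -0.13 and -0.05 and did not pass. Rpl35a was higher by 0.29 and 0.50, and Rpl3 by 0.11 and 0.18. Passing in place alone were Rpl30, Rplp1 and Rps27l2 (0.48, 0.20 and 0.29), with 0.15, 0.10 and 0.12 in threat. The call of Rps27l2 in place was lost without place 1 h replicate 3 (log2 difference 0.19, limma adjusted p = 0.11) and without other single libraries. Whether a gene differed between threat and place in its change over time is the interaction above, for which none passed.

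**Figure D3:**
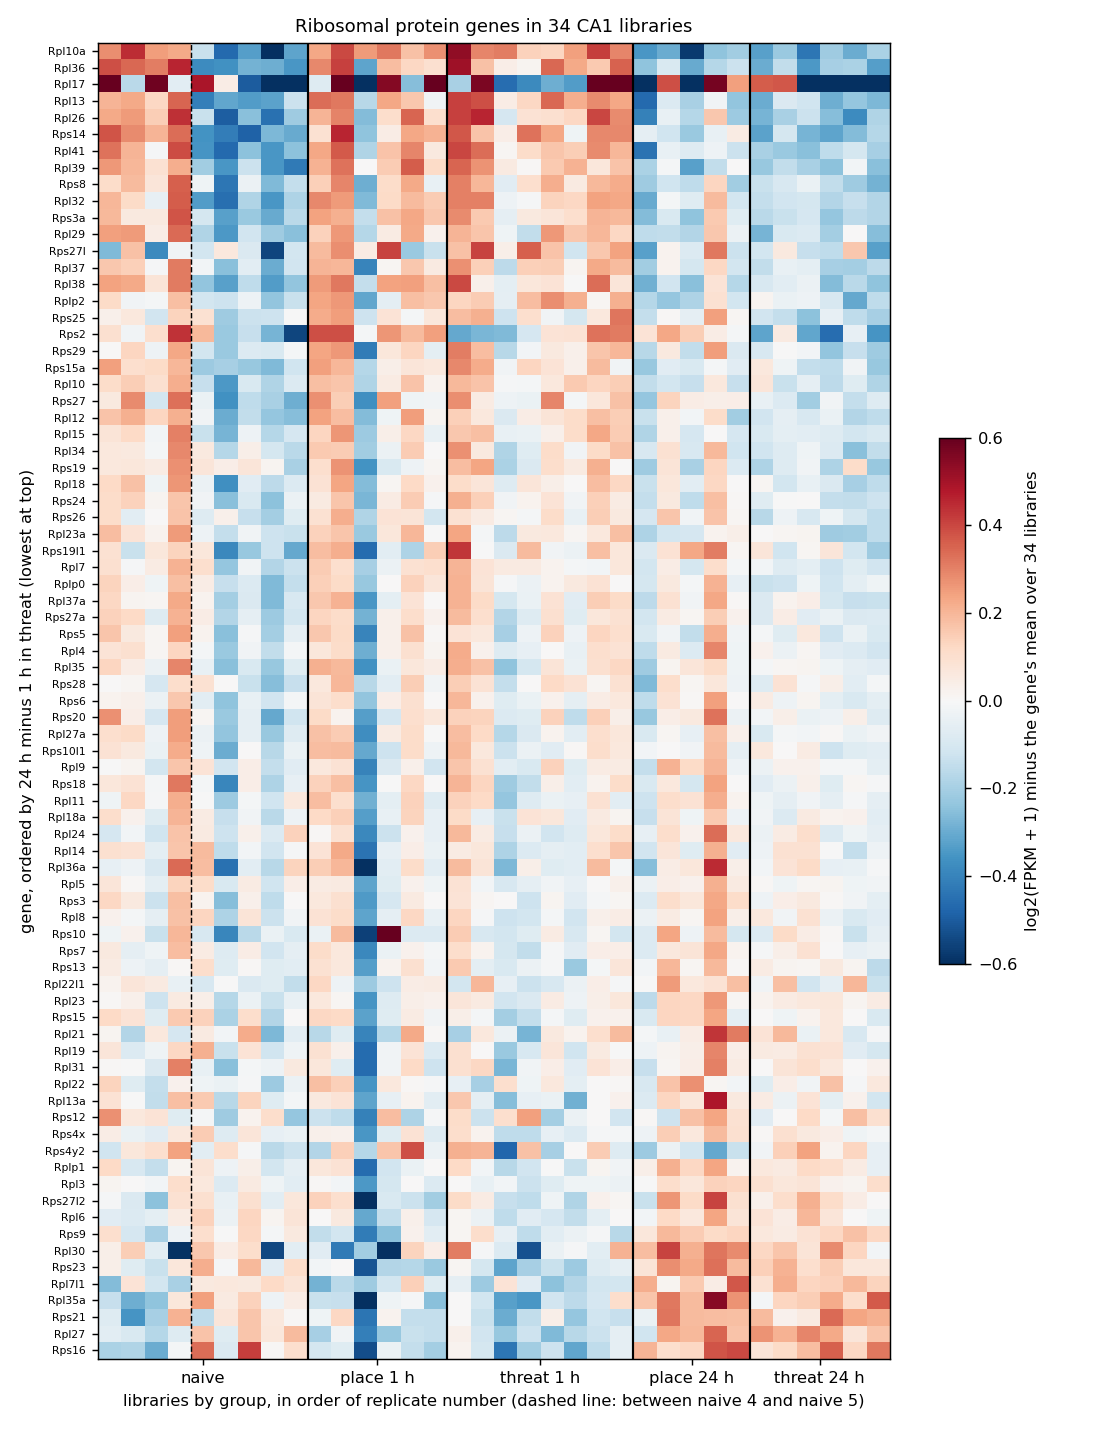
Log2(FPKM + 1) of 79 of the 81 genes, each minus its mean over 34 libraries, with genes ordered by the 24 h minus 1 h difference in threat and libraries by group and replicate number. Genes at the top (Rpl10a, Rpl36, Rpl13) are high in naive 1 to 4 and at 1 h and low in naive 5 to 9 and at 24 h, genes at the bottom (Rps16, Rpl27) go the other way, and place 1 h replicate 3 lies below the mean for 78 of all 81 genes.

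Over the 81 genes, the log2 differences between 24 h and 1 h in threat and in place had r = 0.92 and the same sign in 64. Over all genes tested r was 0.81. These comparisons share no library, and the points share the fit, so the values are descriptions.

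The 2 blocks of naive columns differed along the same line. Since the split was noticed in these values, what follows describes it and is no independent test. In limma, naive replicates 5 to 9 against 1 to 4 gave 26 of the 81 past the threshold (32.1%, beside 19% of all genes), 2 higher (8.61% of all genes) and 24 lower (10.4%). Rpl10a was at 10.1 to 11.9 FPKM in naive 1 to 4 and at 5.24 to 7.63 FPKM in naive 5 to 9, so that the first block lay with the 1 h libraries and the second with the 24 h libraries. Rpl36 was at 13.6 to 15.2 and 8.07 to 8.70 FPKM. Rps16 was at 88.8 to 109 and 103 to 146 FPKM, overlapping, with a log2 difference of 0.32. Over the 81 genes the block difference had r = 0.93 with the difference over time in threat and 0.89 with that in place, and 0.69 and 0.67 over all genes. No library enters both sides of these values.

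Results that use naive depended on the block. Against naive 5 to 9 alone, 28 genes passed in threat 1 h (24 higher and 4 lower) and 22 in place 1 h (16 and 6), and none at 24 h. Against naive 1 to 4 alone none passed at 1 h, and 28 passed in threat 24 h (5 higher and 23 lower) and 22 in place 24 h (8 and 14). Shares over all genes are not given for these fits, and the blocks themselves differed in 19% of all genes. The counts are thus no result about ribosomal protein genes in particular. The labels say nothing of how the blocks, or the 1 h and 24 h libraries, were collected or prepared, and the part of this in the differences over time was not tested.

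**Figure D4:**
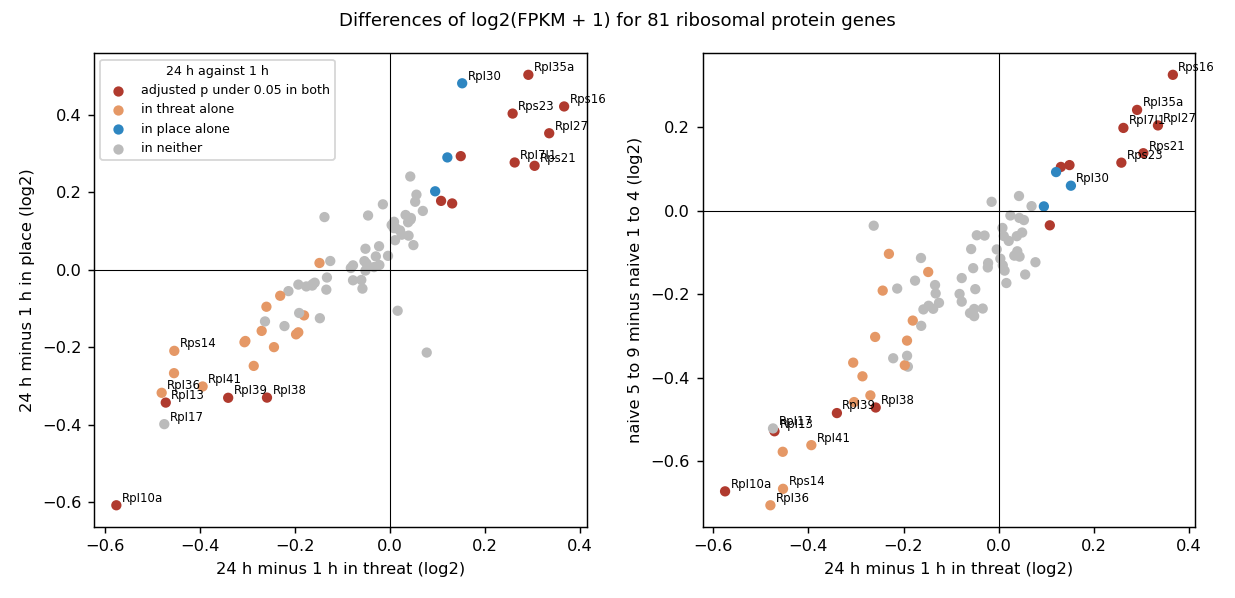
Log2 differences of the 81 genes between 24 h and 1 h in threat (x axis) against the same in place (left) and against naive 5 to 9 minus naive 1 to 4 (right), with each point 1 gene coloured by limma adjusted p under 0.05. Points lie along the diagonal in both panels (r = 0.92 and 0.93), with Rpl10a at the far left of each and Rps16 at the far right.

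What the genes that differed over time share was described from features the test did not use. A pyrimidine run at the start was present in 5 of 9 windows of genes higher at 24 h in either kind of training (55.6%), in 11 of 15 of those lower (73.3%) and in 28 of 39 of the rest (71.8%). CTTCCG was in 33.3%, 73.3% and 53.8% of the same windows. For genes measured on a single-exon row other than Rps4y2, the window and the difference over time come from different loci. The same holds for Rpl10, whose spliced row is on chromosome 1 and whose window is on chromosome X. Among the genes so affected are Rpl35a and Rpl6 of those higher and Rpl10, Rpl37, Rpl38, Rpl39 and Rps26 of those lower. Single-exon rows made up 7 of the 28 genes that passed in threat and 4 of the 16 in place, from 26 single-exon rows tested. With the spliced row in place of the single-exon one, 30 genes passed in threat (7 higher and 23 lower) and 17 in place (10 and 7). That alternative was added with the values known. Spliced rows of Rps4x (-0.61 and -0.39) and Rps27a (-0.55 and -0.43) passed as lower in threat and in place while their single-exon rows did not pass in either (0.07 and 0.15, and -0.08 and 0.005).

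Other genes of translation were read from lists of the same table. The shares of all genes to set beside these lists are 12.5% higher and 16.8% lower at 24 h in threat, and 6.61% and 6.64% in place. Among 20 elongation factors and further TOP mRNAs, 3 were higher (15%) and 4 lower (20%) at 24 h in threat, and 5 higher (25%) and 0 lower in place. Npm1, a nucleolar chaperone of ribosome assembly, was higher by 0.20 in threat (SE 0.03, limma adjusted p = 3.4e-05) and by 0.19 in place, and Eif4b, an initiation factor that aids the helicase Eif4a, by 0.23 and 0.25. Among those lower in threat were Gnb2l1 (-0.18), the Rack1 scaffold of the small subunit, Eif3f (-0.17) and Btf3 (-0.14). Of 28 initiation factors tested, 9 were higher (32.1%) and 2 lower (7.14%) in threat and 7 (25%) and 1 (3.57%) in place, with Eif4a2 at 0.33 and 0.28 and Eif2s3 at 0.24 and 0.25.

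Of 37 ribosome assembly genes tested, 9 were higher (24.3%, beside 12.5% of all genes) and 4 lower (10.8%, beside 16.8%) in threat. In place 8 were higher (21.6%, beside 6.61%) and 1 lower (2.7%, beside 6.64%). Nucleolin (Ncl) was higher by 0.31 and 0.30 and fibrillarin (Fbl), the methyltransferase of box C/D particles, by 0.34 and 0.35. Of 76 mitochondrial ribosomal proteins, which are encoded in the nucleus and serve another ribosome, 13 were higher (17.1%) and 1 lower (1.32%) in threat and 7 (9.21%) and 0 in place. Mrps23 was higher by 0.25 and 0.27 and Mrpl50 by 0.25 and 0.36. Their median log2 difference was 0.04 in threat and 0.05 in place, where that of the 81 cytosolic genes was -0.05 and 0.01.

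Among 18 regulators of TOP mRNA translation, 1 was higher (5.56%, beside 12.5% of all genes) and 8 lower (44.4%, beside 16.8%) at 24 h in threat. In place 0 were higher (beside 6.61%) and 2 lower (11.1%, beside 6.64%). Rps6kb2, a kinase that phosphorylates the ribosomal protein Rps6, was lower by -1.05 in threat (SE 0.15, limma adjusted p = 5.3e-06) and -0.90 in place (SE 0.16, limma adjusted p = 0.00094). Eif4ebp2, a repressor of cap binding released by mTOR, was lower by -0.21 in each. Ddit4, an inhibitor of mTOR complex 1 induced by stress and glucocorticoids, was higher than naive at 1 h, by 0.51 in threat (SE 0.08, limma adjusted p = 0.00070) and 0.40 in place (SE 0.09, limma adjusted p = 0.048). Sesn2, another inhibitor, was higher by 0.22 in threat at 1 h (limma adjusted p = 0.017). Rps6 itself had log2 differences of -0.05 and 0.02 over time and did not pass. Of the marker lists, 5 of 6 endothelial and mural genes were lower at 24 h in threat (summed level 85.3 to 118 FPKM at 1 h and 73.5 to 90.1 at 24 h) and 0 of 6 in place, and 1 of 7 microglial genes was higher in threat and 2 in place (90.2 to 126 and 119 to 154 FPKM). Both blood genes tested, Hbb and Hba-a2, were higher in place by 0.78 each (limma adjusted p = 0.019 and 0.026), with a summed level of 105 to 183 FPKM at 1 h and 154 to 429 at 24 h, and neither passed in threat. Single calls in threat were Man1a1 of the CA1 list and Gad1 of the GABAergic list, both higher, and Mbp (oligodendrocyte) and Aldh1l1 (astrocyte), both lower. In place Slc32a1 of the GABAergic list was higher. Their part in the differences over time was not tested.

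DNA methylation at these genes was read from RPKM (reads per kilobase and library size) of 500 nt bins, in captured and input libraries. At the bin that holds the start of a spliced row, capture was low, with a median below that of input. The captured median over the 55 genes was 0.029 RPKM at 1 h and 0.035 RPKM at 24 h (means of 10 captured libraries). The input median was 0.347 and 0.235 RPKM. Starts of all 12721 rows with a mean of at least 1 FPKM were as low, with captured medians of 0.014 and 0.030 RPKM. Low capture is thus not particular to ribosomal protein genes. At the start of the 26 single-exon rows the captured median was 0.854 RPKM at 1 h and 0.652 RPKM at 24 h, with inputs of 0.267 and 0.290 RPKM. In every captured library the median of the single-exon starts (0.635 to 1.21 RPKM at 1 h, 0.532 to 0.772 at 24 h) lay above that of the spliced starts (0 to 0.050 and 0.027 to 0.056). Single-exon rows are short, for example 156 nt for Rpl39 and 932 nt for Rpl6, so their start bin can hold much of the row. The bins of the 2 kinds of row may thus cover unlike parts of a gene, and the part of this was not tested.

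**Figure D5:**
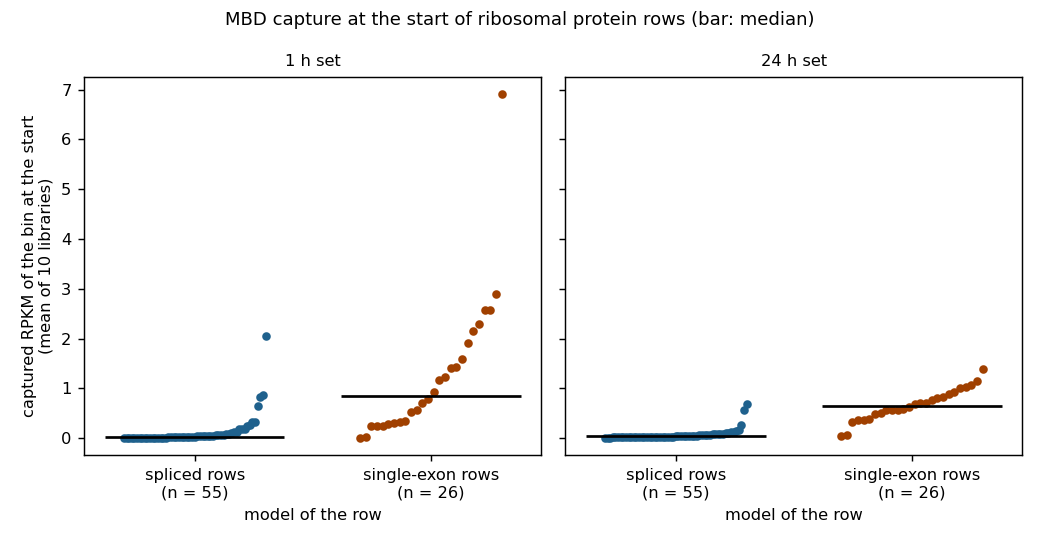
Captured RPKM of the 500 nt bin at the start of each of the 81 rows, mean of 10 captured libraries, in the 1 h and 24 h sets, for spliced and single-exon rows with the median as a bar. Single-exon starts have medians of 0.854 and 0.652 RPKM, spliced starts 0.029 and 0.035 RPKM.

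Within symbols most pairs went the same way. Of 22 symbols whose spliced row reached 1 FPKM, the single-exon start had the higher captured mean in 21 at 1 h and in 21 at 24 h, by over 2 times in 18 and 20. The exception at 1 h was Rpl36a (0.329 RPKM in the single-exon and 0.462 in the spliced row), and at 24 h it was Rpl6 (0.060 and 0.191). For Rps4x the values at 1 h were 0.0046 and 0.0045 RPKM. The spliced rows of the 23 symbols that also have a single-exon row had start medians of 0.043 and 0.071 RPKM, and 1 of them, Rps20, passed the same limits at 1 h. For Rps18 the start of the single-exon row had 2.90 RPKM at 1 h (2.05 to 3.92 over 10 libraries) and that of the spliced row 0 RPKM in all. For Rps13 the values were 2.28 and 0.048 RPKM, and for Rps28 1.22 and 0.371 RPKM. A start bin with a captured mean of at least 1 RPKM and 2 times the input mean was found for 12 of 26 single-exon rows at 1 h (46.2%) and 1 of 55 spliced rows (1.82%), and for 9.73% of all rows. At 24 h it was 5 of 26 (19.2%), 0 of 55 and 1.98%.

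The strongest start was that of Rps4y2, 6.91 RPKM at 1 h (4.92 to 10.1) and 1.395 RPKM at 24 h (0.904 to 1.78), and it is also the gene of lowest mRNA. Other single-exon starts that passed at 1 h included those of Rps7, Rpl37, Rps29, Rps18, Rpl8, Rps13, Rpl34, Rps28, Rpl12 and Rps20. Rps7, first in mRNA level, had 1.41 RPKM at its start. The lone spliced start among the 81 rows was that of Rpl22 (2.05 RPKM at 1 h, 0.569 at 24 h). Single-exon starts with almost no capture were those of Rps4x (0.0046 RPKM at 1 h) and Rpl6 (0.019 RPKM), and the input at these was low as well, 0.083 and 0 RPKM. Absolute values of the 1 h and 24 h sets differ in depth and capture and were not compared.

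Training left no tested bin of these genes past the threshold. Of 623 bins that overlap the rows or 1 kb before their starts, 65 in 32 genes were tested at 1 h and 12 in 8 genes at 24 h. At 1 h none passed in threat against naive, place against naive or threat against place, where 0.016%, 0.00285% and 0.0174% of 350378 bins passed in limma. At unadjusted p under 0.05 there were 14, 5 and 13 of the 65, with 15.4%, 3.34% and 9.98% of all bins. At 24 h none of 12 passed in any of the 3, where 0.0105%, 0.0082% and 7.7% of 85335 bins passed, and 3, 1 and 4 had an unadjusted p under 0.05, with 23.1%, 4.28% and 37.1% of all bins. Without threat 1 h replicate 3, 4 bins passed in threat against naive at 1 h and 1 in threat against place, where 1 also passed without place 1 h replicate 3 or 4. In threat against place at 24 h, 2 passed without place replicate 1 and 1 without threat replicate 3.

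The bin nearest to the threshold at 1 h lay in Rpl7, on chromosome 5 at 2624001 to 2624500 in rn5. It had 2.44 ± 0.42 RPKM in threat (SD, n = 3), 1.22 ± 0.18 in place (n = 4) and 2.26 ± 0.62 in naive (n = 3). Threat against place gave a log2 difference of 0.86 (SE 0.18, limma adjusted p = 0.061), and place against naive -0.74 (SE 0.18, limma adjusted p = 0.51). In threat against place it stands beside a median over all tested bins of 0.13. At 24 h the lowest adjusted p was that of Rpl34 on chromosome 17 at 80516501 to 80517000, in threat against place, where 7.7% of all bins passed. It had 1.37 ± 0.12 RPKM in threat and 0.892 ± 0.33 in place, a log2 difference of 0.55 (SE 0.18, limma adjusted p = 0.051) beside a median over all bins of 0.28. In Rpl13, whose mRNA was lower at 24 h, a bin on chromosome 19 at 66623501 to 66624000 had 2.24 ± 0.65 RPKM in threat and 1.38 ± 0.33 in naive at 1 h, with a log2 difference of 0.60 (SE 0.20, limma adjusted p = 0.19).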

How the data were processed

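RNA was measured in 34 libraries and methylated DNA in 20 captured and 6 input libraries of rat CA1. The authors deposited FPKM per gene and RPKM per 500 nt bin, with no read totals. Builds rn5 and mm10 and the tools TopHat 1.4.0, edgeR, DESeq2 and Bowtie appear, with no roles, in the submitters' processing notes. The tables are titled with a mouse build, but their coordinates lie on rat rn5 chromosomes, and positions are given so. The aligner's treatment of reads that match several copies is not given in the sources used here.

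FPKM steps of single-exon receptor rows gave whole reads, hence 38.02 to 55.1 M (mega) reads per library and each row's model length (all values whole within 0.1 reads). A row whose length equalled its span was called single exon. RPKM steps gave 31.4 to 39.9 M reads per MBD library at 1 h and 42.2 to 59.5 M reads at 24 h. Duplicate PCR reads are not covered by counting error.

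A single limma fit took the 13153 genes that reached 1 FPKM in 5 libraries or more (limma 3.58.1, R 4.3.3, with an intensity trend), on the scale log2(FPKM + 1). It estimated a mean for each of 5 groups and left 29 degrees of freedom for the spread. All 81 genes passed this filter. MBD bins with a captured mean of at least 1 RPKM and 2 times input were fitted per time on log2(RPKM + 0.25). P-values were Benjamini-Hochberg adjusted over all genes or bins, with a threshold of 0.05. A fold change is a difference on these scales and understates low genes. Both fits were tested on simulated data. Alternatives were the pseudocount, filters, scaling, a replicate block, array weights, the groups in the fit, the naive blocks, libraries that stand apart, each library left out and the spliced row of a symbol.

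Named genes were the lowest p of each subunit per contrast, the extremes of level and of spread, paralog pairs, genes against the majority sign, up to 4 per further list, and start bins and lowest-p bins for MBD; Rps4x, Rps27a, Rps6 and Rpl7 over time were added after their values were seen. The genes and lists were chosen with earlier results of these data known. RefSeq start windows (GRCr8) were matched by symbol. They belong to the RefSeq gene, not to the intronless row, though for Rps4y2 the row and the window both lie on chromosome 4. The window of Rpl10 lies on another chromosome than its spliced row. Results of some genes are not reported here by name, and such genes are left out of the plots that name genes.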

Additional observations from a re-analysis of the deposited data

Results flagged for a closer look

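The summed level of the 81 genes in place 1 h replicate 3, 5418 FPKM, lay apart from the other 5 libraries of its group by Dixon's criterion at 95%, out of 5 groups examined. Rpl3 in the same library, 108.8 FPKM, met the criterion too, the only 1 of 85 combinations of 17 named genes and 5 groups. Chance gives about 1 in 20 such flags.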

How the results depend on the processing

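Of 294 counts of ribosomal protein genes or bins under alternatives, 240 stayed within 1.5 times the reported count and 54 did not. Of 848 values of single genes, 786 kept direction and side of the threshold, 29 lost their call, 32 gained one and 1 changed sign, the difference of Rpl10a in threat against naive at 1 h (-0.0061 with naive 1 to 4 alone). The cause of these shifts was not tested, except that fewer libraries or genes enter some fits.

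For RNA, array weights gave 9 genes in threat and 1 in place against naive at 1 h, 1 and 2 at 24 h, and 31 between 24 h and 1 h in place. With naive 5 to 9 alone there were 28 in threat and 22 in place at 1 h and 0 in place at 24 h. With naive 1 to 4 alone there were 28 and 22 at 24 h. Shares over all genes are not given for these alternatives, so the counts are no result about ribosomal protein genes in particular. Place against naive at 24 h had 0 genes with a pseudocount of 0.1, no filter, median-ratio scaling, only the groups compared or the spliced rows. Threat against naive at 24 h had 1 with a filter of 5 FPKM and 1 with the spliced rows, and place over time had 10 with no filter. The replicate block gave 3 genes in threat and 3 in place against naive at 24 h. Its bins were 1 in threat against place at 1 h, 1 in threat against naive at 24 h and 1 in threat against place at 24 h. The labels do not say that replicate numbers pair the samples. Over 58 RNA pairs with the same number the correlation of deviations ran from -0.50 to 0.59 (median -0.04), and 17 exceeded 0.1. The highest was that of replicate 3 in place 1 h and threat 1 h. RNA pairs with different numbers were not compared, so these values cannot decide whether numbers pair samples. Over 9 MBD pairs at each time the correlation ran from -0.14 to 0.038 at 1 h and from -0.056 to 0.051 at 24 h. An MBD pseudocount of 1 gave 1 bin in threat against place at 1 h and 1 at 24 h, and a filter of 2 RPKM left no bin of these genes at 24 h.

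Leaving out 1 library at a time gave 0 to 7 genes in threat against naive at 1 h, 0 to 1 at 24 h, 0 to 2 in place against naive at 24 h, 19 to 31 over time in threat and 9 to 16 in place, and 0 in the other RNA comparisons. For bins it gave 0 to 4 in threat against naive at 1 h, 0 to 1 in threat against place at 1 h, 0 to 2 in threat against place at 24 h and 0 in the others. Depth limits the lowest gene, at a median of 40.5 reads per library, and bins near 1 RPKM.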
